A study of Mus musculus with 32 samples.

Results

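The genes described here are 10 members of the contractile programme of smooth muscle, taken by their symbols: Acta2, Actg2, Myh11, Des, Cnn1, Tagln, Myl9, Lmod1, Smtn and Myocd. All 10 had a value in each of 32 mouse gut libraries, among 21203 symbols with a value in every library and 22532 in any. The libraries compared mice homozygous for a deletion, named percc1-/- in the labels, with wild type. Mutants and controls alike had a mixed 129SvEv and C57BL/6 background, kept by sibling breeding. The percc1-/- mice lack 1512 bp of chromosome 17 in every cell, with a loxP site left in its place. It was introduced into embryonic stem cells of the W4/129S6 line; how many clones the mice descend from is not given in those labels.

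The 32 libraries formed 16 pairs of 1 percc1-/- and 1 wild-type library of one region and stage, where P1 is the first postnatal day and E14.5 an embryonic stage. The small intestine gave 7 pairs, with its top part at P1, P5 and P15 and its bottom part at P1, P5, P10 and P20. The stomach gave 5 pairs, taken whole at P1 and P5 and as its bottom part at P10, P15 and P20. The large bowel gave 3 pairs, colon with rectum together at P1 and each of them alone at P5. The whole gut at E14.5 gave 1 pair. Which libraries share an animal is not stated, nor how many animals went into each, so a p-value measures only the spread between these libraries, which may be partly technical.

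The wall of the gut holds layers of smooth muscle that mix and move its contents. In these cells filaments of actin, here the products of Acta2 and Actg2, slide along filaments of the smooth muscle myosin, whose heavy chain is Myh11 and whose regulatory light chain is Myl9. Calcium entry leads to phosphorylation of that light chain, which starts contraction. Many of the genes carry CArG boxes, the binding sites of serum response factor, whose partner in smooth muscle is myocardin, the product of Myocd.

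Values are FPKM, fragments mapped to a gene relative to its transcript length and to all mapped fragments of the library, as the authors deposited them, and they are given here after rescaling every library to one median level ("rescaled FPKM"). Depth, which the FPKM bounds allow to be estimated, lay between 6770000 and 13690000 fragments a library; counts were not used here, so that no counting interval is given. The top of each library was flat. The highest FPKM of any symbol lay between 62.5 and 204, and the 99.9th percentile of symbols between 38.4 and 73.5. Acta2 stood at 51.3 to 168% of that percentile of its library, Myh11 at 51.8 to 211% and Myl9 at 56.2 to 108%, whereas Lmod1 stood at 5.35 to 30.3% and Myocd at 6.25 to 34.2%. The part of this flat top in the results was not tested. Records without a symbol, assembled by Cufflinks, also lay inside the spans of the members in varying number, from 22 to 81 in Myh11 and from 0 to 93 in Myocd, and were not added to them.

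**Figure D1:**
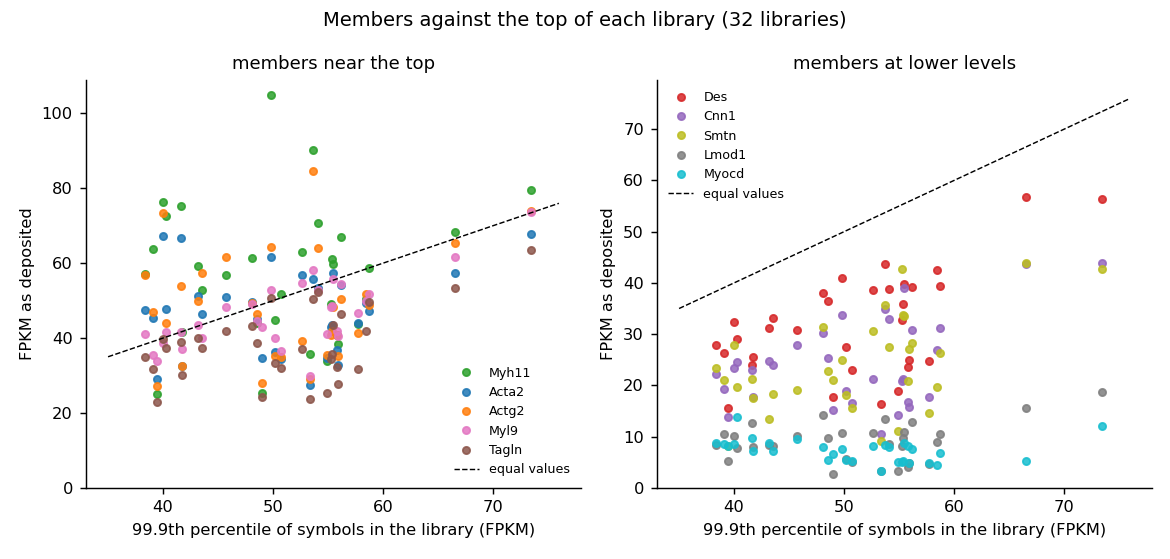
Deposited FPKM of each member (vertical axis) against the 99.9th percentile of symbols in the same library (horizontal axis), 1 point per library and member in 2 panels, with a dashed line where both are equal. Acta2, Actg2, Myh11, Myl9 and Tagln lie around the line, and Des, Cnn1, Smtn, Lmod1 and Myocd lie below it in each of the 32 libraries.

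The genotype labels could be checked only in part. No record carried the symbol Percc1 in any of the 32 tables. The positions given for the deletion (chr17:25175032-25176543, stated as mm9) fall inside Ift140 on mm9, and 4 of 16 percc1-/- libraries held unnamed records wholly within them, against 0 of 16 wild-type ones, so the build of those positions is in doubt. Between Clcn7 and BC003965 on mm9, an interval chosen from earlier results of these data, 6 of 16 wild-type libraries held such records, all 5 of stomach among them, and 0 of 16 percc1-/- libraries did. Of the stomach epithelium markers, 6 of 6 tested were higher in stomach than in small intestine, with a median of 3.34 on the log2 scale. Markers of neighbouring organs (striated muscle, heart, exocrine pancreas, liver or, outside the stomach, stomach epithelium) differed by more than 1 on the log2 scale between the 2 libraries of 9 of the 16 pairs. Their part in the results was not tested beyond the omission of those pairs.

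On mm9 the annotation places the filament genes at chr19:34315580-34329826 (Acta2), chr6:83462899-83486259 (Actg2), chr16:14194620-14291501 (Myh11), chr2:156601156-156607394 (Myl9) and chr1:75356904-75365154 (Des). The actin-binding genes lie at chr9:21903725-21914074 (Cnn1), chr9:45737711-45744141 (Tagln), chr1:137221384-137264642 (Lmod1) and chr11:3417526-3440615 (Smtn), and Myocd lies at chr11:64990063-65083491. Cnn1 and Tagln thus share chromosome 9, Des and Lmod1 chromosome 1, and Smtn and Myocd chromosome 11, each far apart.

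The level of each gene is described first, over all 32 libraries. Myh11, the smooth muscle myosin heavy chain, had the highest mean, 56.9 rescaled FPKM, and ranged from 25.1 in the percc1-/- whole gut at E14.5 to 101.5 in the wild-type rectum at P5. The 2 actins stood next to each other: Actg2, the gamma actin of enteric smooth muscle, ranged from 27.7 to 79.3, and Acta2, the alpha actin best known from vascular smooth muscle, from 31.1 to 77.1. Their ratio, Acta2 over Actg2, had a median of 0.973 and lay between 0.657 and 1.45, with medians of 0.978 in small intestine, 0.942 in stomach and 0.964 in large bowel, and these ranges overlapped. The coding sequences of both actins are alike, with 84.2% of aligned bases identical and a longest identical run of 29 bases, and the division of shared reads in the authors' counting is not stated, so their separate levels are uncertain.

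Myl9, the regulatory light chain of myosin, varied least, 1.73-fold from 34.1 to 59.0 rescaled FPKM. Tagln, the actin-binding protein transgelin, ranged from 24.02 to 51.4. Des, the intermediate filament protein desmin, which skeletal muscle and heart also make, ranged from 17.5 to 49.7. Smtn, the actin-associated protein smoothelin, ranged 4.82-fold from 9.15 to 44.1, and Cnn1, the actin-binding protein calponin, from 11.96 to 38.2. At the lower end stood Lmod1, leiomodin, which promotes the growth of actin filaments, with 2.59 to 14.6 and the widest range of the 10 (5.64-fold). Myocd, the transcriptional coactivator, ranged from 3.79 to 14.9. The lowest library of each member was a whole gut library at E14.5 or the percc1-/- bottom intestine at P1, and the highest was a postnatal stomach, large bowel or older small intestine library.

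**Figure D2:**
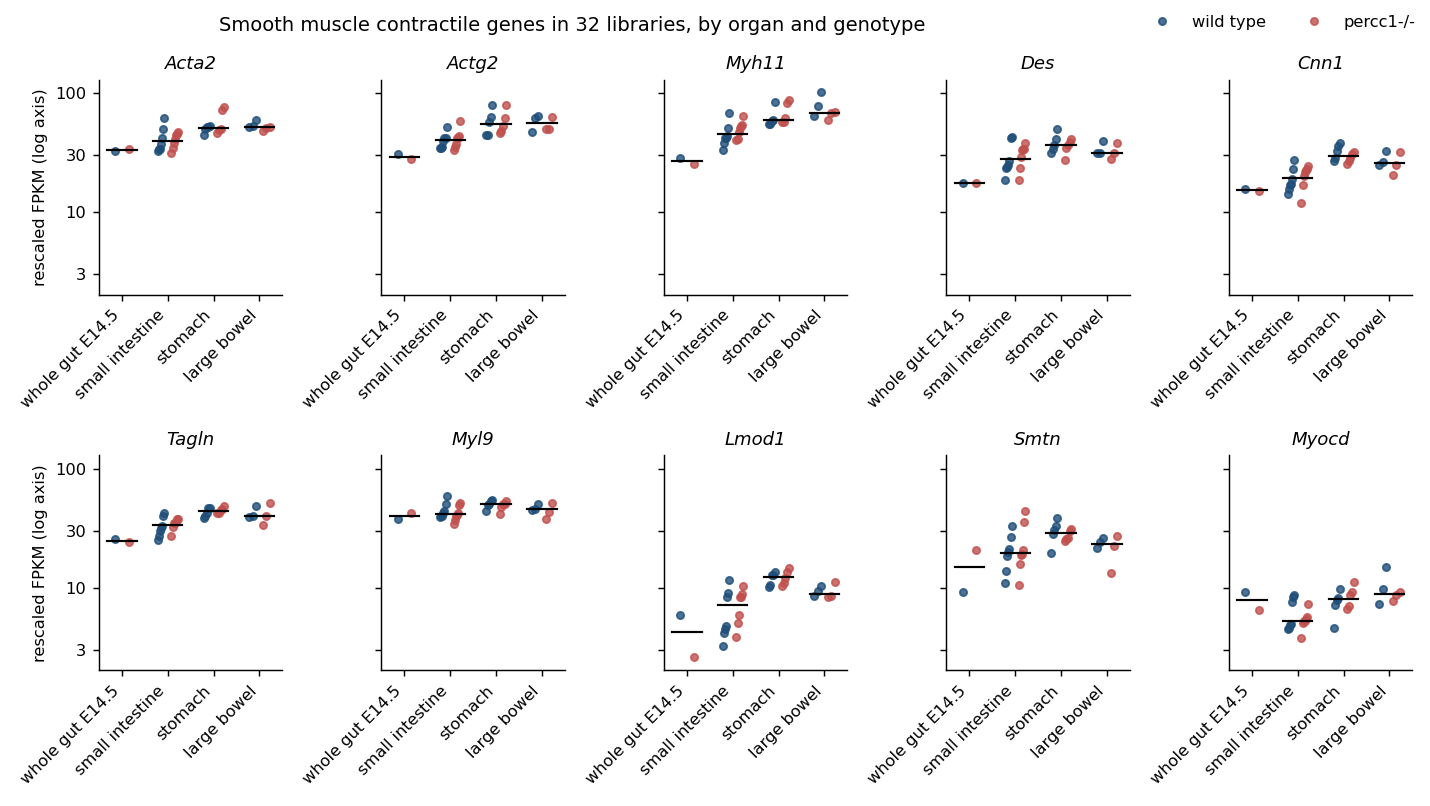
Rescaled FPKM (vertical axis, log scale) of the 10 genes in whole gut at E14.5 (2 libraries), small intestine (14), stomach (10) and large bowel (6). Each point is 1 library, coloured by genotype, and the black line is the median. The medians of stomach and large bowel lie above that of small intestine for each gene, and the points of both genotypes overlap in the 3 postnatal organs.

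The first comparison asked whether the contractile genes differ between percc1-/- and wild-type gut. None of the 10 did by the test used, and each estimate was small. Over all 16 pairs the log2 differences, percc1-/- minus wild type, ran from -0.08 for Myocd to 0.05 for Myh11. With limma and Benjamini-Hochberg adjustment over all genes, 0 of 10 passed an adjusted p of 0.05, and 0 of 10 had an unadjusted p below it. The background was 114 of 13079 genes tested, or 0.872% called in either direction. The intervals bound the size of a shift. The widest 95% interval was that of Smtn, from -0.21 to 0.30, and the narrowest was that of Myl9, from -0.15 to 0.02. Acta2 had 0.03 ± 0.06 (SE), with an interval from -0.09 to 0.16.

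Direction did not hold across pairs. Tagln was higher in percc1-/- in 10 of 16 pairs and Cnn1 in 4 of 16, and the other 8 members lay between. Smtn varied most between the 2 libraries of a pair, from -0.93 in colon with rectum at P1, where it had 13.3 rescaled FPKM in percc1-/- and 26.2 in wild type, to 1.11 in bottom intestine at P20, where it had 44.1 and 19.9, and the whole gut at E14.5 had a like difference of 1.11. Lmod1 ran from -0.95 in whole gut at E14.5 to 0.76 in bottom intestine at P5. In the pair of bottom intestine at P5, 9 of 10 members were higher in percc1-/- with a median of 0.45. In the same pair the striated muscle, heart and stomach epithelium markers were higher by 0.53, 0.56 and 2.22. Markers of interstitial cells of Cajal, the pacemaker cells of gut muscle, were higher by 0.62. In the pair of top intestine at P5, 9 of 10 members were also higher, with a median of 0.22. There the striated muscle, heart and Cajal markers differed by 0.02, 0.11 and 0.38. Stomach epithelium markers differed by -1.12 and exocrine pancreas markers by -3.69. Without the 9 pairs in which markers of other organs differed, 7 pairs remained, 1 of 10 members had a positive estimate, the median was -0.09 and 0 passed, where 0.0229% of all genes did.

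**Figure D3:**
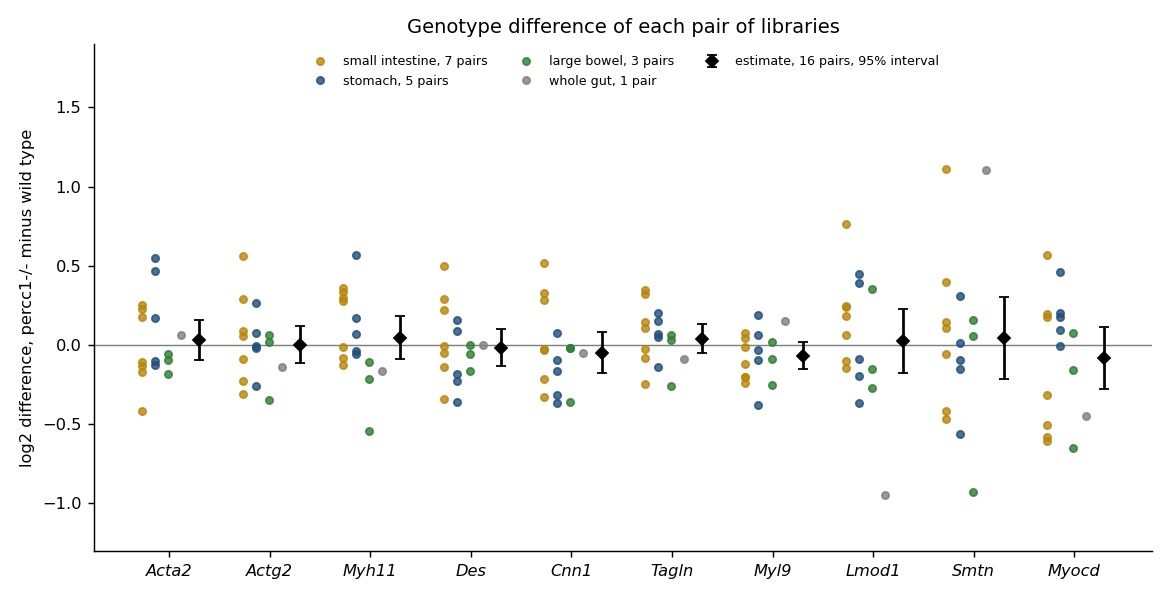
Log2 difference, percc1-/- minus wild type (vertical axis), for each gene and each pair of libraries, coloured by organ, with the limma estimate over 16 pairs and its 95% interval as a black diamond and bar. The 10 intervals include 0, and single pairs of Smtn and Lmod1 lie near 1 or -1.

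The organs were then fitted one by one. In small intestine 0 of 10 members passed, over 7 pairs, where 0.117% of all genes did, and none had an unadjusted p below 0.05. Lmod1 had the largest estimate there, 0.18 ± 0.12 (SE, 95% interval -0.08 to 0.44). In stomach 0 of 10 passed, over 5 pairs, where 0.0226% of all genes did, and again none had an unadjusted p below 0.05. The estimates in stomach ran from -0.17 for Cnn1 to 0.19 for Acta2.

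In large bowel all 10 estimates were below 0, with a median of -0.11 over 3 pairs. Myh11 had the only unadjusted p below 0.05. It had 59.4, 67.6 and 69.4 rescaled FPKM in percc1-/- colon with rectum, colon and rectum, and 64.1, 78.5 and 101.5 in wild type. The wild-type library was the higher one in each of the 3 pairs, although the groups overlapped. The difference was -0.29 ± 0.11 (SE), with an unadjusted p of 0.0446 and a limma adjusted p of 0.492. Of all genes 0.015% were called in large bowel, and 0 of 10 members were. With the deposited FPKM, not rescaled, 2 of the 10 estimates were positive, and without single pairs 1 to 3 were. In the same pairs the 3 markers of interstitial cells of Cajal had a median of -0.41 and the 4 markers of mesothelium -0.50. By pair, mesothelium had -1.26 in colon with rectum, -0.67 in rectum and 0.23 in colon. Fibroblast markers (1 of 7 above 0, median -0.14), vessel and pericyte markers (2 of 8, -0.14) and tested glia markers (1 of 4, -0.16) were also mostly below 0. Neuron markers were divided, with 7 of 13 above 0 (median 0.03). Some lists went the other way. All 5 tested stomach epithelium markers were above 0 (median 0.85, with 2.41 in colon, 0.01 in colon with rectum and -0.09 in rectum). All 5 tested epithelial markers (median 0.20) and 4 of 5 leukocyte markers (median 0.07) were also above 0. In each of these lists 0 were called, and their part in the values of Myh11 was not tested.

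The difference of the genotype effect between stomach and small intestine was tested directly. It passed for 0 of 10 members, where 0.0153% of all genes were called, with 0 unadjusted p below 0.05. The largest estimate was that of Myocd, 0.34 ± 0.21 (SE), higher in stomach.

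The other genes of the machinery, taken from 3 lists, did not pass either. Of 18 thin filament and actin-binding genes 0 were called over all pairs, with a median of 0.01. Of 22 tested genes that switch contraction on and off (kinase and phosphatase of the light chain, calcium and potassium channels, receptors, nitric oxide signalling) 0 were called, with a median of 0.00, and of 14 transcription regulators 0 were called, with a median of -0.01. The median of all genes was -0.00.

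The organs were compared next. Averaged over stages, the stomach had more of each of the 10 transcripts than the small intestine. With stage and genotype in the model, all 10 passed as higher in stomach over 24 libraries, by 0.16 to 0.72 on the log2 scale with a median of 0.42. The background was high, since 26.0% of all genes passed as higher in this comparison and the median of all genes was 0.02. In bulk tissue, fewer cells of a type and less RNA per cell cannot be told apart, here and below.

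Lmod1 differed most. It ran from 3.23 over a median of 7.08 to 11.5 rescaled FPKM in the 14 small intestine libraries, and from 10.03 over 12.3 to 14.6 in the 10 of stomach. Of the stomach libraries 6 lay above every small intestine library. The difference was 0.72 ± 0.14 (SE, limma adjusted p = 0.000148). Cnn1 ran from 11.96 over 19.3 to 27.3 in small intestine and from 25.1 over 29.5 to 38.2 in stomach, and 7 of 10 stomach libraries lay above the whole range of small intestine. Its difference was 0.59 ± 0.08 (SE, limma adjusted p = 7.22e-06). Tagln had 8 of 10 stomach libraries above that range, with 0.37 ± 0.06 (SE, limma adjusted p = 7.96e-05).

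The filament proteins followed. Actg2 was higher by 0.50 ± 0.10 (SE), Myh11 by 0.46 ± 0.11 and Acta2 by 0.40 ± 0.11, with limma adjusted p of 0.000405, 0.00132 and 0.00391. Myocd was higher by 0.43 ± 0.12 (SE, limma adjusted p = 0.00661). Des had 0.28 ± 0.08 and Myl9, the light chain near the top of each library, 0.16 ± 0.05, with limma adjusted p of 0.00654 and 0.0149. Smtn passed narrowly, with 0.38 ± 0.15 (limma adjusted p = 0.0422), and lost its call in 15 of 24 fits that left out 1 library. The other 9 members kept theirs in each of those fits.

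The early stages were also fitted alone. At P1 and P5, where the stomach was taken whole, all 10 passed again with a median of 0.70, where 23.7% of all genes passed as higher. For 6 of 10 (Acta2, Actg2, Myh11, Cnn1, Tagln and Lmod1) the 4 stomach libraries lay above all 8 of small intestine, as they did for 13.2% of all genes. Acta2 had 52.1, 52.3, 72.3 and 77.1 rescaled FPKM in stomach, against 31.1 to 47.3 in small intestine. The 2 higher stomach values were both of percc1-/- libraries. At P10 to P20 the ranges of all 10 members overlapped between 6 libraries of each organ, while 9.57% of all genes were higher in stomach without overlap. Without the 9 pairs that differ in markers of other organs, which leaves the stomach with the 2 libraries of P20, all 10 estimates stayed positive, the median was 0.18 and 0 passed, where 6.54% of all genes passed as higher. In the wild-type libraries alone 4 of 10 passed (Actg2, Cnn1, Tagln and Lmod1), where 17.9% of all genes passed as higher.

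Markers of other muscles moved with this comparison. Of 8 tested striated muscle markers 6 were higher in stomach, their sum lay between 23.6 and 175.6 rescaled FPKM in stomach and between 14.2 and 41.9 in small intestine, and the 3 tested heart markers were all higher. Tnni3, cardiac troponin I, rose by 2.76. The 3 markers of interstitial cells of Cajal were higher, by 0.35 for Etv1, 0.76 for Kit and 1.38 for Ano1. Of 11 tested neuron markers 4 were higher and 2 lower, of 4 tested glia markers 2 were higher and 1 lower, of 7 fibroblast markers 6 were higher, and of 5 tested epithelial markers 3 were lower. The part of these cells in the differences of the members was not tested.

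Of the other lists, the thin filament genes were mostly higher in stomach. Of 18 thin filament and actin-binding genes 16 passed as higher and 0 as lower, with Fhl1, a LIM domain protein of muscle, at 1.01 ± 0.11 (SE), Pdlim7 at 0.54 ± 0.11, Pdlim3 at 0.52 ± 0.09 and Cnn2 at 0.51 ± 0.08. Of 22 tested switch genes 8 were higher and 1 was lower, against 3390 higher and 2911 lower of all 13042 genes. Tacr2, the receptor of neurokinin A, had 1.66 ± 0.13, Chrm3, the muscarinic receptor that drives contraction, 1.31 ± 0.13, and Pln, phospholamban, an inhibitor of the calcium pump, 1.03 ± 0.12. Of 13 tested transcription regulators 5 were higher and 3 lower. Barx1, a homeobox gene of stomach mesenchyme, had the largest rise, 3.68 ± 0.24. Nkx2-3, a homeobox gene of intestinal mesenchyme, and Hand1 fell by 2.39 and 1.78.

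**Figure D4:**
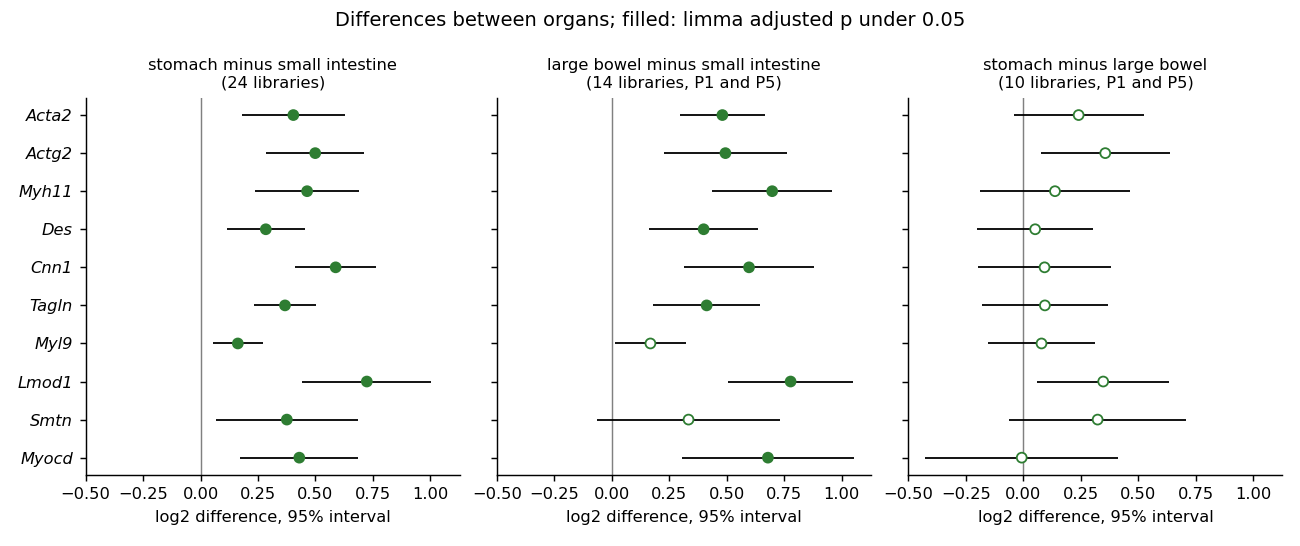
Log2 difference (horizontal axis) of each gene between stomach and small intestine, large bowel and small intestine, and stomach and large bowel, with 95% intervals from limma; filled points passed an adjusted p of 0.05. In the first 2 panels 10 and 8 of 10 genes passed as higher, and 0 passed in the third.

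Large bowel also exceeded small intestine. At P1 and P5, over 6 and 8 libraries, 8 of 10 members passed as higher, where 20% of all genes did. Lmod1 again stood first, with 8.28 over a median of 8.90 to 11.1 rescaled FPKM in large bowel and 3.23 over 4.63 to 8.33 in small intestine, and 5 of 6 large bowel libraries lay above the small intestine range. Its difference was 0.78 ± 0.13 (SE, limma adjusted p = 0.000432).

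Myh11 ran from 59.4 over 68.5 to 101.5 in large bowel and from 33.5 over 41.6 to 53.8 in small intestine, without overlap, and differed by 0.70 ± 0.12 (SE, limma adjusted p = 0.00067). Acta2, from 48.2 over 52.0 to 59.6 against 31.1 over 36.2 to 47.3, did not overlap either; 5.78% of all genes were higher in large bowel without overlap. Myocd was higher by 0.68 ± 0.17 (SE, limma adjusted p = 0.00769) and Cnn1 by 0.60 ± 0.13 (0.00306). Myl9, with 0.17 ± 0.07, and Smtn, with 0.33 ± 0.18, did not pass (limma adjusted p = 0.0821 and 0.174). Myl9 passed when all symbols were scaled to one sum, with 0.24 (limma adjusted p = 0.0169), and both passed under quantile normalization.

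Markers of other cell types were read beside these values. Of 12 tested markers of enteric neurons 11 passed as higher in large bowel, and their summed level lay between 84.5 and 118 rescaled FPKM there and between 40.0 and 80.8 in the small intestine of all stages. All 3 markers of interstitial cells of Cajal and 5 of 7 of fibroblasts passed as higher, while of 4 tested markers of enteric glia 2 were higher and 1 lower, with a median of 0.05, and 0 of 8 of vessels and pericytes passed in either direction. Of the thin filament list 16 of 18 genes were higher, with Pgm5 at 0.72 ± 0.12 (SE), and of the switch list 14 of 22. Kcnma1, the large potassium channel that relaxes smooth muscle, had 1.36 ± 0.18, Cacna1c, the channel of calcium entry, 1.22 ± 0.22, and Ppp1r14a, an inhibitor of light chain phosphatase, 1.18 ± 0.12. Of 12 tested transcription regulators Hand2 and Nkx3-2 were higher, by 0.95 and 0.93, and Gata6 fell by 1.24; Hand2 is also among the neuron markers. The part of the other cells in the members' differences was not tested.

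Stomach and large bowel were not told apart by the test of any of the 10 genes. Even so, 9 of 10 estimates were higher in stomach, with a median of 0.12. At P1 and P5, over 4 and 6 libraries, 0 of 10 passed in limma, where 13.2% of all genes did, and 2 had an unadjusted p below 0.05. These were Actg2, with 62.4, 63.1, 79.0 and 79.3 rescaled FPKM in stomach and 47.5 over 56.1 to 63.9 in large bowel, and Lmod1. They differed by 0.36 ± 0.12 (SE, 95% interval 0.08 to 0.64, limma adjusted p = 0.1) and 0.35 ± 0.13 (0.06 to 0.63, 0.115). The smallest estimate was that of Myocd, -0.01, with an interval from -0.43 to 0.41, so that a sizeable difference of Myocd in either direction would not have been seen. Without the wild-type library of colon with rectum at P1, Actg2 and Smtn passed.

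Colon and rectum at P5 had 1 library of each genotype, which allows a description. Cnn1 had 20.5 and 26.6 rescaled FPKM in colon and 32.3 and 32.7 in rectum, in percc1-/- and wild type. Tagln had 33.6 and 40.3 against 51.4 and 49.2, and Myocd 9.12 and 14.9 against 7.78 and 7.32. Both rectum libraries thus stood above both colon libraries for Cnn1 and Tagln and below them for Myocd. They also stood above them for Acta2, Actg2, Des, Myl9 and Smtn, while Myh11 and Lmod1 overlapped. Myocd was the only member with both rectum libraries lower. The 3 genes with values given were chosen after their values were seen. No test was made with 2 libraries of each region, and the share of all genes without overlap was not determined.

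Top and bottom parts of the small intestine did not differ detectably. At P1 and P5, over 4 libraries of each part, 0 of 10 members passed in limma, where 0.00783% of all genes did, and 1 had an unadjusted p below 0.05. That gene was Smtn, with 15.7, 19.1, 21.3 and 26.8 rescaled FPKM in the top part and 10.4, 10.9, 13.9 and 18.6 in the bottom part. The groups overlapped, with 3 of 4 top libraries above all bottom ones. The difference was 0.59 ± 0.16 (SE, unadjusted p = 0.00736, limma adjusted p = 0.639).

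Stage was compared next. In small intestine all 10 estimates for P10 to P20 against P1 and P5 were above 0, with a median of 0.31, and 3 of 10 passed as higher, where 3.46% of all genes did. Lmod1 ran from 3.23 over 4.63 to 8.33 rescaled FPKM in the 8 younger libraries and from 8.31 over 8.87 to 11.5 in the 6 older ones. The ranges met only through the percc1-/- bottom intestine at P5, whose 8.33 was the highest of the younger group, and 5 of 6 older libraries lay above it. The difference was 0.86 ± 0.15 (SE, limma adjusted p = 0.00793), and it held in each fit that left out 1 library.

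Des ran from 18.6 over 23.8 to 33.6 in the younger libraries and from 26.9 over 35.8 to 43.0 in the older, a difference of 0.58 ± 0.14 (SE, limma adjusted p = 0.0271). Smtn ran from 10.4 over 17.2 to 26.8 and from 18.6 over 26.8 to 44.1, a difference of 0.79 ± 0.20 (SE, limma adjusted p = 0.0339). Both rested on few libraries. Des lost its call in 4 and Smtn in 7 of the 14 fits that left out 1 library, and in the wild-type libraries alone 1 of 10 passed, Lmod1, where 0.728% of all genes passed as higher. The count was 1 without either bottom intestine library of P1 or without the wild-type top intestine at P1 or at P15, and 6 without the percc1-/- bottom intestine at P5. Without the pairs that differ in markers of other organs it was also 1, where 0.279% of all genes passed as higher.

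Some other muscle genes passed as higher with age in small intestine, as did 3.46% of all genes. Of 18 thin filament genes 4 passed as higher (Synm at 0.99 ± 0.19 (SE), Hspb6 at 0.79 ± 0.16, Pgm5 at 0.72 ± 0.13 and Pdlim3 at 0.50 ± 0.10) and 0 as lower. Of 23 tested switch genes 4 passed as higher (Ppp1r14a, Pln, Tacr2 and Kcnmb1, the accessory subunit of the large potassium channel) and 0 as lower. Hand1 and Hand2 were the only called genes among 11 tested transcription regulators. Of the 3 markers of interstitial cells of Cajal 2 were higher. Several lists outside muscle also lay mostly above 0. These were 6 of 7 fibroblast markers (median 0.30), 10 of 11 tested neuron markers (0.23) and 4 of 4 tested glia markers (0.18). The median of the members was 0.31. Vessel and pericyte markers had 4 of 8 above 0 (-0.11), and tested striated muscle markers 3 of 6 (-0.07). The part of these cells in the members' rise was not tested.

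In stomach the older libraries are of its bottom part and the younger of the whole organ, so that stage and part cannot be told apart. There 3 of 10 members passed as lower in the older libraries, where 9.07% of all genes did. Actg2 had 62.4, 63.1, 79.0 and 79.3 rescaled FPKM in the 4 younger libraries and 44.2 over 47.2 to 57.4 in the 6 older ones, without overlap; 8.14% of all genes were lower without overlap. It fell by 0.52 on the log2 scale (SE 0.11, limma adjusted p = 0.0113). Myh11 had 58.3, 82.2, 84.5 and 86.9 against 54.8 over 57.4 to 62.04 and fell by 0.41 (SE 0.10, limma adjusted p = 0.023), and Acta2 fell by 0.35 (SE 0.11, limma adjusted p = 0.0462).

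The other 7 members had estimates from -0.40 for Myocd (SE 0.15, limma adjusted p = 0.0918) to 0.22 for Des, and none of them passed. The 3 calls depended on the scaling. Records with a symbol held 28.4 to 60.2% of the summed FPKM in the 6 older libraries and 18.4 to 29.4% in the 4 younger ones. The highest share was that of the percc1-/- bottom stomach at P15, which also had the largest scaling factor, 1.38. The part of this difference between libraries in the calls was not tested. With FPKM as deposited the median of all genes moved from -0.01 to 0.20, 0 of 10 members passed, where 4.86% of all genes passed as lower, and the estimates were -0.28 for Actg2, -0.17 for Myh11 and -0.11 for Acta2, while 6 of the other 7 were positive, Tagln and Lmod1 now among them. Acta2 lost its call in 8 and Myh11 in 5 of the 10 fits that left out 1 library, with libraries of both genotypes among those omitted. Actg2 kept its call in each of these fits. The count was 1 without each of 4 percc1-/- libraries, those of whole stomach at P1 and P5 and of bottom stomach at P15 and P20. It was 0 in the wild-type libraries alone, where 2.35% of all genes passed as lower. Beside these values, all 4 mesothelium markers and 2 of 3 tested heart markers were lower in the older libraries, Tnni3 was higher by 1.76, and 4 of 6 stomach epithelium markers were higher. Of 9 tested striated muscle markers 2 were lower and 1 was higher, with a median of -1.03 and 8 of 9 estimates below 0. The part of these tissues was not tested. Of 22 tested switch genes 2 were higher (Tacr2 and Pln) and 4 lower, among them Kcnma1, which fell by 0.70, and Prdm6, a regulator of smooth muscle genes, fell by 2.27.

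**Figure D5:**
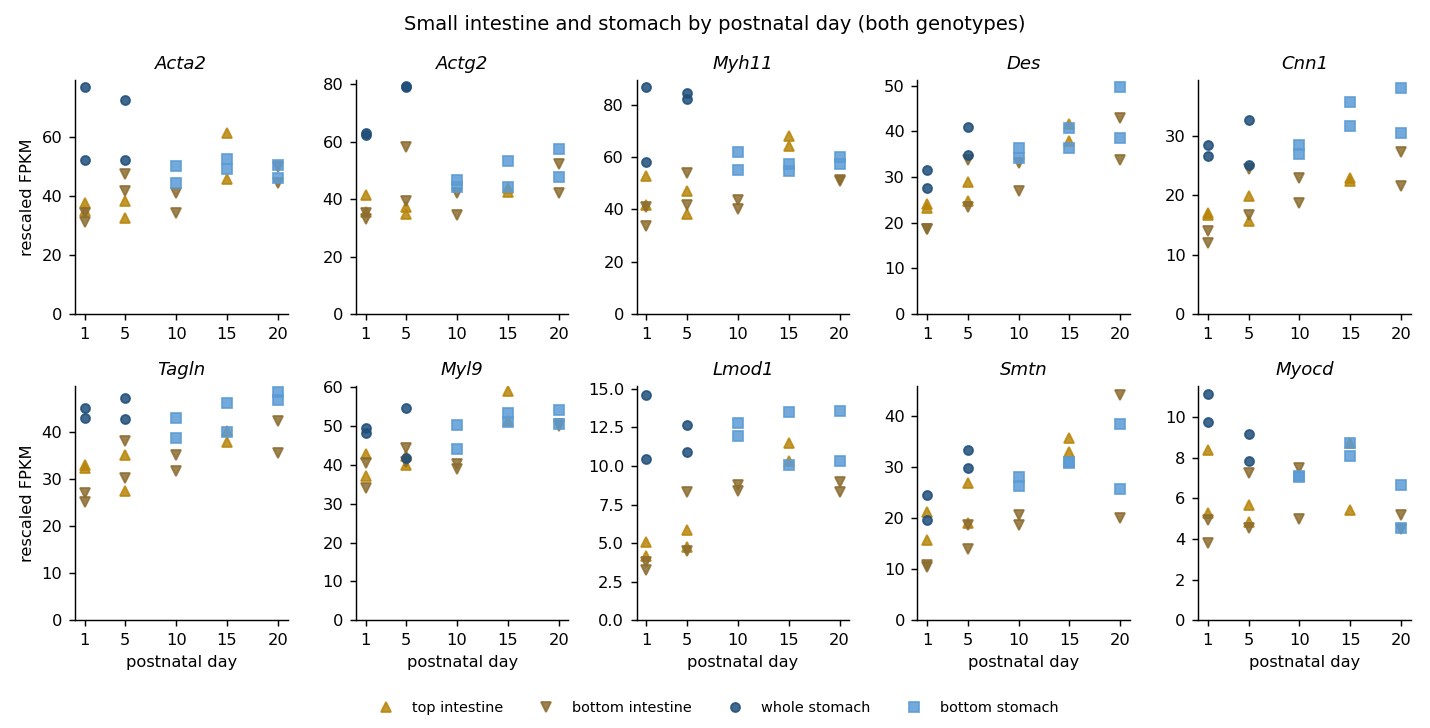
Rescaled FPKM (vertical axis) by postnatal day (horizontal axis) of the 10 genes in small intestine (triangles pointing up for the top part, down for the bottom part) and stomach (circles for the whole organ, squares for its bottom part), 1 point per library, both genotypes. Lmod1 in small intestine lies at 3.23 to 8.33 at P1 and P5 and at 8.31 to 11.5 later, while Actg2 in stomach lies at 62.4 to 79.3 at P1 and P5 and at 44.2 to 57.4 later.

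Whether the change with stage differs between the organs was tested in a model added after the values had been seen. The change was lower in stomach than in small intestine for all 10 estimates, with a median of -0.58, and 4 of 10 passed, where 5.87% of all genes passed as lower. Lmod1 had the largest estimate, -0.87 ± 0.21 (SE, limma adjusted p = 0.00869). Myh11 followed with -0.72 ± 0.16 (0.00555), then Acta2 with -0.66 ± 0.18 (0.0204) and Actg2 with -0.65 ± 0.17 (0.0181). With FPKM as deposited, where the median of all genes was 0.18, 0 passed (3.41% of all genes passed as lower) and 1 of 10 estimates was positive, and in the wild-type libraries alone 1 passed, where 2.24% of all genes did.

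A narrower comparison used the 3 regions dissected alike at P1 and P5, the 2 parts of the intestine and the whole stomach. Between these days 0 of 10 members passed in limma over 12 libraries, as did 0.0% of 13161 genes, of which 1339 had an unadjusted p below 0.05. Smtn and Des had unadjusted p-values below 0.05, with 0.45 ± 0.12 (SE, unadjusted p = 0.0039, limma adjusted p = 0.267) and 0.36 ± 0.10 (0.00578 and 0.297), both higher at P5. The other 8 had estimates from -0.07 for Myocd to 0.26 for Lmod1.

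The whole gut at E14.5 had 1 library of each genotype and is described by the deposited FPKM and its bounds. Smtn had 21.1 (bounds 19.3 to 22.9) in percc1-/- and 8.14 (7.10 to 9.18) in wild type. Lmod1 had 2.62 (2.198 to 3.04) and 5.27 (4.55 to 6.00), the reverse order. Of the other 8 members Myocd had the largest log2 difference, -0.45. The bounds of Smtn and of Lmod1 stood apart between genotypes, but the bounds cover the estimate within a library and not the spread between animals. Heart markers differed in the same pair, with a summed level of 163 rescaled FPKM in percc1-/- and 48.7 in wild type, and the striated muscle markers had 256 and 237, more than in any postnatal library (14.2 to 175.6). Heart and striated muscle also express several contractile genes, among them Des, which had 17.5 and 17.6 rescaled FPKM here; the part of these tissues in the values was not tested.

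The members varied together over the 32 libraries, which share their scaling and their organs. Over 45 pairs of genes Pearson's r of log2 values had a median of 0.709, a lowest value of 0.124 between Des and Myocd and a highest of 0.930 between Cnn1 and Tagln. Tagln followed the mean of the other 9 most closely (r = 0.932) and Myocd least (r = 0.382), with Smtn at 0.660. Outside the 10 genes, Flna, the actin crosslinker filamin A, was most like their mean (r = 0.950 over 32 libraries), among 13069 genes compared. Pdlim3 (0.909), AI414108 (0.903), Tspan2 (0.893), Wscd2 (0.878), Mrgprf (0.877), Pcp4l1 (0.864), Vcl, the focal adhesion protein vinculin (0.863), Ccdc107 (0.859) and Scamp1 (0.859) came next. Flna, Pdlim3 and Vcl were in the thin filament list.

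Since the genes moved together, their upstream sequences were read for CArG boxes. The box is the letters CC, then a run of letters that are each A or T, then GG, and it reads as a box on both strands. The RefSeq promoter table (GRCm38.p6, a build other than that of the FPKM) held 6 of the 10 members: Acta2, Des, Cnn1, Myl9, Lmod1 and Smtn. In the 250 bases before the start, 1 of 6 had a CArG box, Myl9, and 3 of 6 (Acta2, Myl9 and Lmod1) had a stretch 1 letter off the box; of all 32851 promoters 1.47% and 17.5% did. The stretches with these letters are given here, 5′ to 3′ on the strand of the gene, with each box or near box in capitals.
Acta2: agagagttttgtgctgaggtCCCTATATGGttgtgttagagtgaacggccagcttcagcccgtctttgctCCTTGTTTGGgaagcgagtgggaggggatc
Myl9: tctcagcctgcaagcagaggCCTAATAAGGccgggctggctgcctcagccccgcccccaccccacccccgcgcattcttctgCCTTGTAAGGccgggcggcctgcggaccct
Lmod1: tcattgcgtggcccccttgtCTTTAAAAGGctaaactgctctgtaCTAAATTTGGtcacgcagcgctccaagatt
The stretch of Acta2 lies at chr19:34255378-34255477 on the minus strand, with its near boxes beginning 84 and 34 bases before the start. That of Myl9 lies at chr2:156775283-156775394 on the plus strand, with the box at 161 and the near box at 99 bases before the start. That of Lmod1 lies at chr1:135324604-135324678 on the plus strand, with near boxes at 189 and 164 bases. A match of letters describes the sequence and is not a measured site.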

How the data were processed

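Per the labels' protocols, gut was squeezed empty, RNA was extracted with TRIzol, and strand-specific libraries were made after removal of ribosomal RNA. The authors deposited FPKM per record with bounds from Cufflinks 2.2.1; TopHat2 2.0.13, SAMtools 0.1.18 and the genome mm9 are also named in the submitters' processing notes. Annotation, strand setting and treatment of duplicate or shared reads are not given in the sources used here. Where a library had several records of a symbol, these were added up. A symbol that lay in a record of several symbols, or in one with a failed status, was missing in that library and left out of fits with it.

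Libraries were rescaled by the median ratio over 10023 genes above 1 FPKM in every library (factors 0.866 to 1.38). Tests used limma 3.58.1 in R 4.3.3 on log2(rescaled FPKM + 1) for genes whose mean reached 1, with a trended robust variance prior, two-sided p-values and Benjamini-Hochberg adjustment over all genes; genes under 0.05 were called. The pseudocount makes differences of lowly expressed genes too small. Genotype fits had the pair of region and stage as a block. Organ fits had stage and genotype as terms, small intestine stage the part (top or bottom) and genotype, stomach stage the genotype, and P5 against P1 the region and genotype. The fits were also run on simulated data in which libraries varied independently. That setting leaves out shared animals and tissue of other organs, and no result here rests on it. Correlations are descriptions over libraries. The members, the gene lists and the rule for named genes (up to 4 called genes of a list with the largest change, and the 10 genes most like the mean of the members) were chosen with earlier results of these data known.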

Additional observations from a re-analysis of the deposited data

Results flagged for a closer look

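For 4 genes the change from P1 and P5 to P10 to P20 differed between stomach and small intestine by the interaction test of the added model (24 libraries, limma, adjusted over 13042 genes). The difference, stomach minus small intestine on the log2 scale, was -0.87 for Lmod1, -0.72 for Myh11, -0.66 for Acta2 and -0.65 for Actg2. The mean of Lmod1 went from 4.96 ± 1.58 (SD, n = 8) to 9.37 ± 1.28 rescaled FPKM (n = 6) in small intestine and from 12.1 ± 1.9 (n = 4) to 12.02 ± 1.54 (n = 6) in stomach. The mean of Actg2 went from 39.3 ± 8.1 to 42.9 ± 5.8 in small intestine and from 71.0 ± 9.5 to 48.9 ± 5.3 in stomach. In stomach the stage cannot be told apart from the part taken. The share of FPKM in records with a symbol also differed there between the stages, as given above, and its part was not tested. Markers of some other cells were also mostly below 0 in the same test, and those of others were mostly above it. All 4 of mesothelium passed as lower (median -1.50). Of 8 tested striated muscle markers, all below 0, 1 passed (median -0.93), and of 3 of interstitial cells of Cajal, all below 0, 1 passed (median -0.55). Of 11 tested enteric neuron markers 10 were below 0 and 1 passed as lower (median -0.49). Heart markers were mixed, since 1 of 3 tested was above 0 and passed as higher, while the median was -1.04. All 7 tested exocrine pancreas markers were above 0 and 1 passed as higher (median 0.59). Of 5 tested epithelial markers 4 were above 0 and 1 passed as higher (median 0.31). Of 6 stomach epithelium markers 4 were above 0 and 0 passed (median 0.12). The part of these cells in the differences of the 4 genes was not tested.

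Of 20 sets of pair differences (10 genes, 7 pairs of small intestine and 5 of stomach), 0 held a pair far from the others by Dixon's criterion.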

How the results depend on the processing

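Counts are of the 10 genes called. In the 5 genotype comparisons the count stayed 0 under every setting that could be fitted: FPKM as deposited, equal sums, pseudocount 0.1, no filter on low values, no pair block, quantile normalization (chosen after seeing the data), and omission of each pair or of the 9 pairs with markers of other organs, which left too few stomach pairs for a fit of stomach alone. Differences averaged within stages also gave 0. Stomach against small intestine gave 4 in wild-type libraries alone, 0 without the pairs with markers of other organs, and 9 to 10 without single libraries. Large bowel against small intestine gave 7 to 10 in all settings. Stomach against large bowel gave 0 to 2 without single libraries. Small intestine by stage gave 1 in wild type alone and without the marked pairs, and 1 to 6 without single libraries. Stomach by stage gave 0 with FPKM as deposited and in wild type alone, and 1 to 3 without single libraries. The added stage difference between organs gave 0 as deposited, 1 in wild type alone, 6 under quantile normalization and 3 to 5 without single libraries. The causes were not tested, although wild type alone and the omissions leave fewer libraries. Of 2490 alternative values of single genes, 2398 were rated the same, 78 lost a call and 14 gained one. The same includes every value called in neither the main nor the alternative fit, whatever its direction. Where either fit made a call, 0 reversed. Estimates without a call could change direction. That of the genotype difference of Smtn in large bowel went from -0.24 to as high as 0.11 when single pairs were left out. No paired analysis was possible by replicate number because each group of one region, stage and genotype holds 1 library. The flat top of the libraries and the estimated 6770000 to 13690000 fragments limit what small differences can show.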
